A study of Mus musculus with 6 samples.

Results

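Cell cycle and proliferation genes were examined as 40 named members in prostates of mice with experimental autoimmune prostatitis (EAP), an immune-driven inflammation of the gland. The members were taken by gene symbol from the deposited table of read counts, which held all 40 among its 18697 genes. They comprise 9 S-phase genes (Mcm2 to Mcm7, Pcna, Rrm1 and Rrm2), 5 genes of the G1/S transition and thymidylate supply, 24 mitotic genes, and Hmgb2 and Stmn1.

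Both groups were mice with EAP that received daily intraperitoneal injections for 14 days, and no group without EAP was compared. The treated group received VUF11207, an agonist of the atypical chemokine receptor CXCR7 (Ackr3), at 5 mg/kg per day, and the control group received DMSO. The labels of the DMSO libraries carry the same dose figure, and the design text speaks of an equal amount of DMSO, so the group was read as vehicle. Each group had 3 RNA sequencing libraries of prostate tissue. The sources used here do not give the strain, the age or the agent that induced EAP. The labels do not tie libraries to mice, so p-values measure the spread among these 6 libraries, which may be partly technical.

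Cells that enter the cycle load replication origins before S phase and fire them in S phase. Later they condense, align and separate their chromosomes in mitosis. E2F transcription factors drive the S-phase genes, and the DREAM and MYB-FOXM1 complexes act through CHR elements of mitotic genes, often beside CCAAT boxes bound by NF-Y. The adult prostate epithelium divides slowly, and both epithelial repair and infiltrating lymphocytes can add dividing cells to an inflamed gland. In RNA from whole tissue, fewer cycling cells and less RNA per cycling cell cannot be told apart.

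Library values below are CPM (counts scaled by TMM to a common library size), in the order unnumbered, 2, 3 for vehicle and 1, 2, 3 for VUF11207. The unnumbered vehicle library is the column whose name matched no replicate label. Total counts were 20308018 to 33368058 per library, the highest in vehicle replicate 2. Its effective size (total times TMM factor) was nevertheless the lowest, at 14201649 against 27043206 to 30965856 in the other libraries. The luminal epithelium markers Pbsn and Hoxb13 were detected in every library, at uneven values. Pbsn was at 17680, 680.7 and 768.7 CPM with vehicle and 622.8, 6734 and 2650 CPM with VUF11207. Hoxb13 was at 378.1, 181.9 and 348.1 CPM against 384.1, 532.6 and 804.1 CPM. The mean centred log2 CPM of the luminal list was 0.206, -0.331 and -0.136 against -0.272, 0.0939 and 0.44. For the basal epithelium list it was -0.547, -0.136 and 0.211 against 0.467, -0.367 and 0.371. The part of epithelium in the cell cycle values was not tested. Seminal vesicle genes stood far apart in vehicle replicate 2, whose TMM factor was 0.426. Their mean log2 CPM, centred over the 6 libraries, was -2.98, 5.59 and -1.17 with vehicle and 2.86, -3.5 and -0.795 with VUF11207. Their summed CPM was 5256, 1525000 and 132400 with vehicle and 277900, 24970 and 31110 with VUF11207. These sums are relative to the effective size and not to the total.

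The S-phase and mitotic members differed in the motifs of their promoters, a property the choice of members did not use, and 5 promoters are printed to show it. RefSeq promoter windows (GRCm38.p6, 250 bases before to 50 after the start) were found for 32 of the 40 members. The motifs searched on both strands, overlaps allowed, were the CHR element TTTGAA, the NF-Y box CCAAT, the E2F-type sites in the forms TTCCCGC or TTCGCGC and in the related forms TTGCCGC or TTGGCGC, and the SP1 box GGGCGG. Mcm6 is an example of an S-phase gene, Cdk1 of a promoter with sites of both kinds, and Top2a and Kif11 of mitotic genes. Mcm6 and Top2a are not typical in their number of matches. Mcm6 had the most E2F-type matches of the members, 5 in the full window, while Mcm2 and Pcna had 0. Top2a and Ube2c had the most CCAAT boxes, 6 each. Nusap1 is shown because it had the smallest p of the 40. Each line holds the 250 bases before the start site, 5′ to 3′ on the gene's strand, with CHR, CCAAT and E2F-type matches on either strand in capitals. The intervals are chr1:128359706-128359955 (minus strand) for Mcm6, chr10:69352913-69353162 (minus) for Cdk1, chr11:99024190-99024439 (minus) for Top2a, chr19:37376132-37376381 (plus) for Kif11 and chr2:119618048-119618297 (plus) for Nusap1.
Mcm6: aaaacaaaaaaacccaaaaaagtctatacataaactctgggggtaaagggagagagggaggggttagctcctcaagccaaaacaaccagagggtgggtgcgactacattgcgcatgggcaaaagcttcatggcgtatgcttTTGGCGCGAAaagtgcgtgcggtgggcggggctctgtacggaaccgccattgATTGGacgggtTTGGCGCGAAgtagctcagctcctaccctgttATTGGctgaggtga
Cdk1: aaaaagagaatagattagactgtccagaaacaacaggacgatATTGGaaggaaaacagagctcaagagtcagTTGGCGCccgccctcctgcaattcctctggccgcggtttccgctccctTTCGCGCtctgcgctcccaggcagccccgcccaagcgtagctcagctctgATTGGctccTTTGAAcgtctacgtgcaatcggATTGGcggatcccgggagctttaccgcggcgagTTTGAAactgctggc
Top2a: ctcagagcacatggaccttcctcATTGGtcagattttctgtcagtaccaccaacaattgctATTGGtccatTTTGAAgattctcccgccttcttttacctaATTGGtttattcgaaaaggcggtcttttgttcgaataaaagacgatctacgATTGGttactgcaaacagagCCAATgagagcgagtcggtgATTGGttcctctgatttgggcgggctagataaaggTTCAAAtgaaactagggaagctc
Kif11: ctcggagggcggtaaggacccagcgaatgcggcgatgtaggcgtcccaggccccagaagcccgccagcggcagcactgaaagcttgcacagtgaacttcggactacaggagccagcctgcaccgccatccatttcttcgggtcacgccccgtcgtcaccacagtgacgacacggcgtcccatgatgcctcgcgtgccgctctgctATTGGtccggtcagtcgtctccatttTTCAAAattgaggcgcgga
Nusap1: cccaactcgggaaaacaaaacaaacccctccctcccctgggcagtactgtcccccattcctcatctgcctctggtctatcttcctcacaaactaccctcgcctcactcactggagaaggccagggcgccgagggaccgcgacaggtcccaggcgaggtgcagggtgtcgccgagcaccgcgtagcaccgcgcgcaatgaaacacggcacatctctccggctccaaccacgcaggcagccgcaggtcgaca
The Mcm6 stretch held 4 E2F-type matches in overlapping pairs and 2 CCAAT boxes. Cdk1 held 2 CHR matches, 3 CCAAT boxes and 2 E2F-type matches, and Top2a held 2 CHR matches with 6 CCAAT boxes. In Kif11 a single CHR match began 19 bases before the start, with 1 CCAAT box at 45 bases. The Nusap1 stretch held none of these letters, which says nothing of other sites or of the factors.

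The CHR letters were present in 14 of 19 mitotic members with a window (73.7%) and in 1 of 8 S-phase members (12.5%, Mcm2). Among the 10921 tested genes with a window outside chromosome 18 the share was 14.6%. Among all 32851 windows outside that chromosome, tested or not, it was 17.9%. E2F-type letters showed the opposite split, at 6 of 8 S-phase members (75%) and 3 of 19 mitotic members (15.8%), against 18.7% of tested genes and 9.57% of all windows. CCAAT boxes were shared by 8 of 8 S-phase and 17 of 19 mitotic members (89.5%), against 42.6% of tested genes and 37.4% of all windows. The 4 G1/S and thymidylate members with a window (Ccne1, E2f1, Tyms and Tk1) held none of these 3 motifs, and all 4 held the SP1 box. SP1 boxes occurred in 84.2% of mitotic members, 75% of S-phase members, 66.8% of tested genes and 35.7% of all windows. In the 100 bases before the start and 50 after, the CHR share of the mitotic members stayed at 73.7% while that of tested genes was 5.88%. The E2F-type share of the S-phase members was 50% there, against 11.2% of tested genes. These matches are descriptions of letters, and the expression data do not measure binding.

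**Figure D1:**
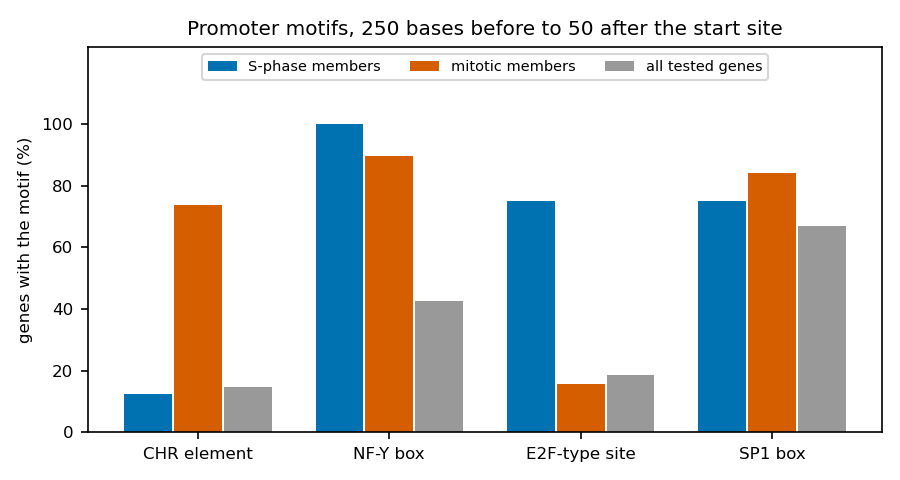
Share of genes (%) with each motif in the RefSeq window from 250 bases before to 50 after the start. Bars are S-phase members (8 genes), mitotic members (19 genes) and all tested genes with a window outside chromosome 18 (10921). The CHR bar is tallest for mitotic members (73.7%) and the E2F-type bar for S-phase members (75%), while both hold the NF-Y box more often than tested genes do.

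With edgeR's quasi-likelihood test and Benjamini-Hochberg adjustment, 0 of the 40 members passed an adjusted p under 0.05, as did 0 of the 13753 genes tested (0%). All 40 members passed the low count filter. One member, Nusap1, had an unadjusted edgeR p under 0.05, toward higher values with VUF11207, against 131 genes (0.953%) higher and 65 lower over the table. DESeq2 called 4 genes of the table (0.0291%) and 0 members. The log2 fold change (VUF11207 minus vehicle) was positive for 36 of 40 members with a median of 0.39, while 44.7% of all tested genes were positive with a median of -0.041. These genes share the same 6 libraries and are not replicates of the treatment. Exact permutation of 3 libraries against 3 cannot give a p below 0.1, so no test of a single value was added.

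Every VUF11207 library exceeded every vehicle library for 6 of the 40 members, against 419 of 13753 tested genes (3.05%). They were Mcm3, Ccne1, Ccne2, Tyms, Top2a and Nusap1. No member lay below all vehicle libraries, against 347 genes (2.52%). Of the 6, 1 was an S-phase gene, 3 belonged to the G1/S and thymidylate genes and 2 were mitotic. The count was 4 under upper quartile scaling (3.24% of tested genes) and 3 under library totals alone (1.88%). It was 11 without vehicle replicate 3 (10.7% of tested genes) and 24 without VUF11207 replicate 3 (6.2%).

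**Figure D2:**
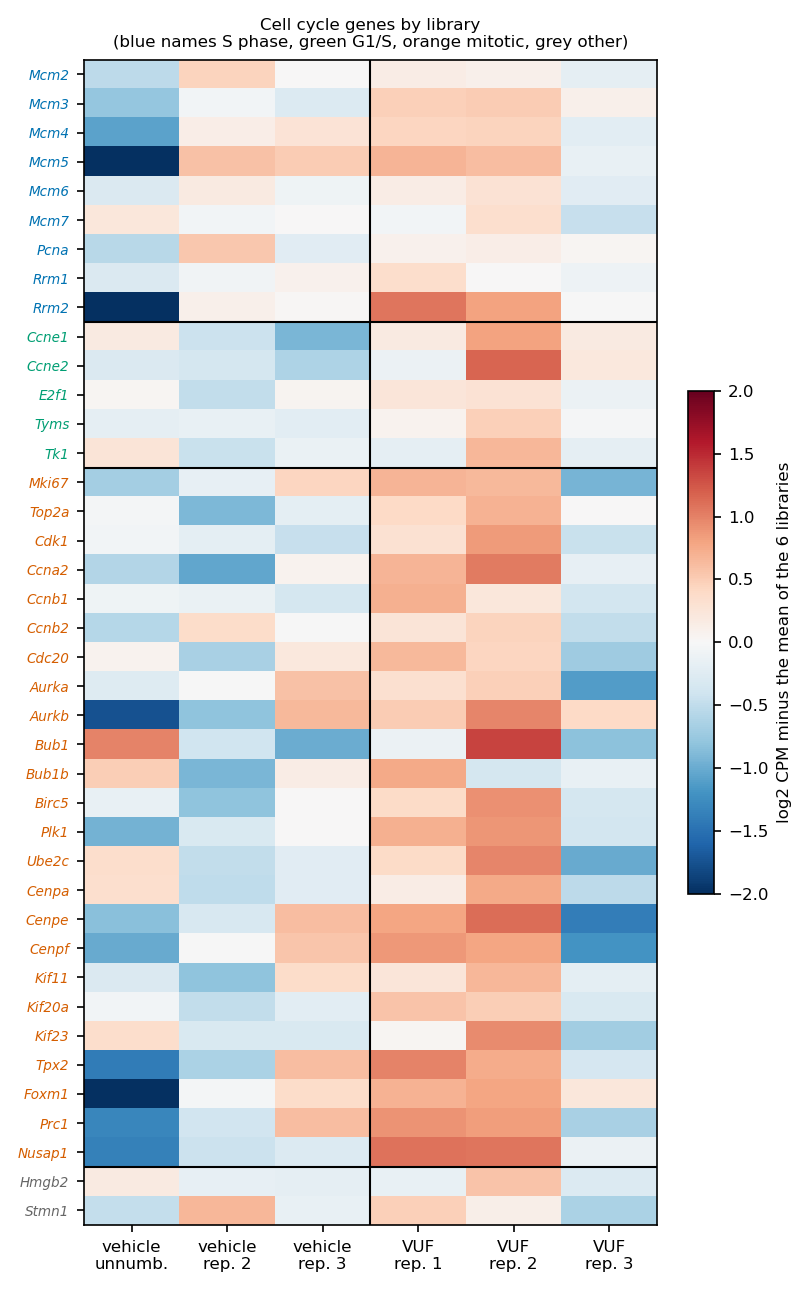
Colours give the log2 CPM of each member in each library minus its mean over the 6 libraries (red higher, blue lower, saturating at 2), with lists divided by horizontal lines and groups by the vertical line. VUF11207 replicates 1 and 2 are red for most members, VUF11207 replicate 3 is pale or blue for most, and the unnumbered vehicle library is blue for 8 of 9 S-phase genes.

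Among the S-phase members, 7 of 9 fold changes were positive, with a median log2 fold change of 0.18. The Mcm2 to Mcm7 genes encode the 6 subunits of the replicative helicase, which is loaded at origins as a ring. Mcm3 (chromosome 1, 20802968 to 20820312 in mm10) was at 3.03, 5.00 and 4.30 CPM with vehicle and at 7.20, 7.31 and 5.54 CPM with VUF11207. Its groups did not overlap, although the highest vehicle value and the lowest treated value were close. The log2 fold change of Mcm3 was 0.70 ± 0.33 (SE), with an unadjusted edgeR p of 0.0726.

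The other helicase subunits overlapped between the groups. Mcm2 was at 7.14, 14.0 and 10.3 CPM with vehicle and 11.4, 11 and 9.02 CPM with VUF11207, a log2 fold change of -0.0012 ± 0.30 (SE). Mcm7 was at 12.6, 10.4 and 10.8 CPM against 10.4, 13.6 and 7.87 CPM, a log2 fold change of -0.086 ± 0.27. For these subunits the mean difference was smaller than the spread inside each group. Mcm4 had 3.37, 7.82 and 8.59 CPM with vehicle and 9.56, 9.72 and 6.12 CPM with VUF11207 (log2 fold change 0.36 ± 0.42, SE). Mcm5 had 0.555, 3.94 and 3.71 CPM against 4.19, 4.02 and 2.37 CPM (0.37 ± 0.73). Both had their lowest value in the unnumbered vehicle library, as did 8 of the 9 S-phase genes, Mcm7 being the exception. Mcm6 was at 7.47, 10.4 and 8.62 CPM with vehicle and 10.2, 11.2 and 7.84 CPM with VUF11207 (0.14 ± 0.26).

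Pcna encodes the sliding clamp that holds DNA polymerase on its template. It was at 15.9, 33.9 and 19.99 CPM with vehicle and at 24.8, 25.6 and 24.1 CPM with VUF11207. Vehicle values thus lay on both sides of the treated ones. Annotated pseudogenes of Pcna leave its values uncertain, and the log2 fold change was 0.094 ± 0.30 (SE). Rrm1 and Rrm2 encode the large and small subunits of ribonucleotide reductase, which makes deoxyribonucleotides. Rrm2 (chromosome 12, 24708241 to 24714146) was at 1.78, 7.61 and 7.14 CPM with vehicle and 14.8, 12.3 and 7.03 CPM with VUF11207. Its log2 fold change was 1.05 ± 0.58 (SE), the largest of the S-phase members, with an unadjusted edgeR p of 0.112. Its 2 highest libraries were VUF11207 replicates 1 and 2, while VUF11207 replicate 3 lay among the vehicle values. Rrm1, its partner, was at 13.5, 15.7 and 17.3 CPM against 20.9, 16.6 and 15.3 CPM, a log2 fold change of 0.18 ± 0.22.

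Several S-phase signs depended on 1 library. Without the unnumbered vehicle library the log2 fold changes of Mcm5 and Pcna turned to -0.117 and -0.115, that of Mcm7 to 0.00193, and that of Rrm2 was 0.628. Without vehicle replicate 3 Pcna was at -0.00123. Mcm2 turned positive without vehicle replicate 2 (0.27) or VUF11207 replicate 3 (0.0944), and Mcm7 without VUF11207 replicate 3 (0.0904). Under library totals alone Mcm2 and Mcm7 were positive, at 0.334 and 0.0794, but that scaling also moved the median of all tested genes to 0.145.

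The G1/S and thymidylate members had positive fold changes in 5 of 5 genes, with a median log2 fold change of 0.37. Ccne1 and Ccne2 encode the E-type cyclins that activate CDK2 at entry into S phase. Ccne1 was at 1.92, 1.27 and 0.904 CPM with vehicle and 1.93, 2.98 and 1.93 CPM with VUF11207. Ccne2 was at 0.814, 0.775 and 0.646 CPM with vehicle and 0.912, 2.21 and 1.15 CPM with VUF11207. Both genes separated the groups by a narrow margin, and both were highest in VUF11207 replicate 2. Their log2 fold changes were 0.74 ± 0.51 and 0.93 ± 0.57 (SE).

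Tyms encodes thymidylate synthase, which makes the thymidine nucleotide from its uridine counterpart. Its vehicle values had the smallest SD relative to their mean of the 40, at 7.54, 7.75 and 7.43 CPM, against 9.02, 11.9 and 8.45 CPM with VUF11207. The means were 7.57 ± 0.161 and 9.80 ± 1.87 CPM (SD, n = 3 each), and the log2 fold change was 0.37 ± 0.24 (SE), with an unadjusted edgeR p of 0.173. A pseudogene named after Tyms is annotated, and reads shared with it would make the value uncertain. Tk1, thymidine kinase of the salvage route, was at 7.21, 4.44 and 5.49 CPM with vehicle and 5.34, 9.52 and 5.31 CPM with VUF11207 (log2 fold change 0.23 ± 0.37, SE). VUF11207 replicate 2 alone stood above the vehicle libraries, and without it the log2 fold change of Tk1 was -0.1. E2f1, a transcription factor that activates S-phase genes, was at 2.85, 1.97 and 2.87 CPM against 3.28, 3.39 and 2.57 CPM (0.26 ± 0.40).

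Mitotic members had positive fold changes in 23 of 24 genes, Aurka being the exception, with a median log2 fold change of 0.49. The largest was that of Nusap1, a microtubule-binding protein of the spindle (chromosome 2, 119618298 to 119651244). It was at 0.629, 1.20 and 1.32 CPM with vehicle and at 3.41, 3.39 and 1.49 CPM with VUF11207. VUF11207 replicates 1 and 2 were far above the vehicle libraries and replicate 3 was just above them. The log2 fold change of Nusap1 was 1.39 ± 0.57 (SE), with a 95% interval from 0.048 to 2.74, an unadjusted edgeR p of 0.0442 and a Benjamini-Hochberg adjusted p of 0.9999.

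Top2a encodes topoisomerase II alpha, which untangles sister chromatids, and lies on chromosome 11 from 98992943 to 99024189. It was at 7.80, 4.30 and 6.98 CPM with vehicle and 10.5, 13.0 and 8.04 CPM with VUF11207. As for Nusap1, replicate 3 was the lowest treated library and only just cleared the highest vehicle one. The log2 fold change was 0.72 ± 0.33 (SE), with an unadjusted edgeR p of 0.0657. Ccna2 encodes cyclin A2, which works with CDK2 in S phase and with CDK1 at mitotic entry (chromosome 3, 36564865 to 36572150). It was at 2.33, 1.69 and 3.65 CPM against 5.61, 7.18 and 3.11 CPM, so that VUF11207 replicate 3 fell within the vehicle range. The log2 fold change of Ccna2 was 1.04 ± 0.49 (SE), with an unadjusted edgeR p of 0.0697.

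Cdk1, the kinase of mitotic entry, was at 6.69, 6.06 and 5.07 CPM with vehicle and 8.58, 12.6 and 5.14 CPM with VUF11207 (log2 fold change 0.56 ± 0.38, SE). Its B-type cyclin partner Ccnb1 was at 2.63, 2.54 and 2.20 CPM against 4.56, 3.25 and 2.16 CPM (0.44 ± 0.43). In both genes VUF11207 replicates 1 and 2 exceeded all vehicle libraries and replicate 3 did not. Ccnb2, the other B-type cyclin, had a log2 fold change of 0.15 ± 0.47. Pseudogenes named after Ccnb1 and Ccnb2 are annotated, which leaves their values uncertain. Foxm1, a transcription factor of mitotic genes, was at 0.370, 1.48 and 1.97 CPM with vehicle and 2.47, 2.65 and 1.79 CPM with VUF11207 (0.85 ± 0.67).

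Mki67, the proliferation antigen Ki-67 that coats mitotic chromosomes, was at 3.44, 4.93 and 7.43 CPM with vehicle and 8.85, 8.62 and 2.91 CPM with VUF11207. Its highest and lowest values were thus both in treated libraries, and the log2 fold change was 0.37 ± 0.52 (SE), with a 95% interval from -0.87 to 1.598. Plk1, a kinase of mitotic entry and spindle assembly, was at 1.04, 1.62 and 2.002 CPM against 3.28, 3.69 and 1.55 CPM (0.87 ± 0.53). The chromosomal passenger genes Aurkb (kinase) and Birc5 (survivin) had log2 fold changes of 0.94 ± 0.69 and 0.68 ± 0.49. Aurka, the centrosomal Aurora kinase, was at 1.66, 1.97 and 2.97 CPM with vehicle and 2.47, 2.75 and 0.912 CPM with VUF11207, a log2 fold change of -0.11 ± 0.57. Tpx2, which targets Aurka to the spindle, had one of 0.79 ± 0.66.

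The spindle checkpoint genes Bub1 and Bub1b had an SE above the median of the mitotic members (0.537), and their effector Cdc20 did not. Bub1 and Bub1b, kinases of the checkpoint, had log2 fold changes of 0.31 ± 0.83 and 0.14 ± 0.59 (SE), and Cdc20, which activates the anaphase-promoting complex, had 0.30 ± 0.46. Ube2c, a ubiquitin-conjugating enzyme of that complex, was at 7.17, 4.01 and 4.81 CPM with vehicle and 7.33, 11.1 and 2.81 CPM with VUF11207 (0.41 ± 0.53). The highest and the lowest value of Ube2c were both in the treated group. Of the centromere proteins, Cenpa had 0.31 ± 0.48, Cenpe 0.55 ± 0.83 and Cenpf 0.43 ± 0.70. The kinesins Kif11, Kif20a and Kif23, motors of the spindle and of cytokinesis, had 0.43 ± 0.54, 0.55 ± 0.43 and 0.30 ± 0.59, and Prc1, which bundles midzone microtubules, had 0.65 ± 0.65. For all of these the groups overlapped. Cenpe had the lowest counts of the members, down to 6 in a library.

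Several mitotic signs also rested on 1 library. Without VUF11207 replicate 2 the log2 fold changes were -0.534 for Bub1, -0.228 for Kif23, -0.073 for Ube2c, -0.0586 for Cenpa and -0.0454 for Ccnb2. Ccnb2 was at -0.0619 without the unnumbered vehicle library, Bub1 at -0.0293 without vehicle replicate 3, and Bub1b at -0.141 without vehicle replicate 2 and -0.234 without VUF11207 replicate 1. Aurka turned positive without vehicle replicate 3 (0.174) or VUF11207 replicate 3 (0.242) and under library totals alone (0.054).

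Hmgb2, a chromatin protein of dividing cells, was at 23.2, 18.2 and 18.1 CPM with vehicle and 18.5, 30.3 and 16.9 CPM with VUF11207 (log2 fold change 0.14 ± 0.28, SE). Stmn1, the microtubule-destabilising stathmin, was at 8.99, 20 and 11.3 CPM against 17.5, 13.6 and 8.11 CPM (-0.035 ± 0.41). The groups overlapped in both genes. Hmgb2 was at -0.161 without VUF11207 replicate 2, and Stmn1 at 0.374 without vehicle replicate 2, 0.215 without VUF11207 replicate 3 and 0.352 under library totals alone.

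**Figure D3:**
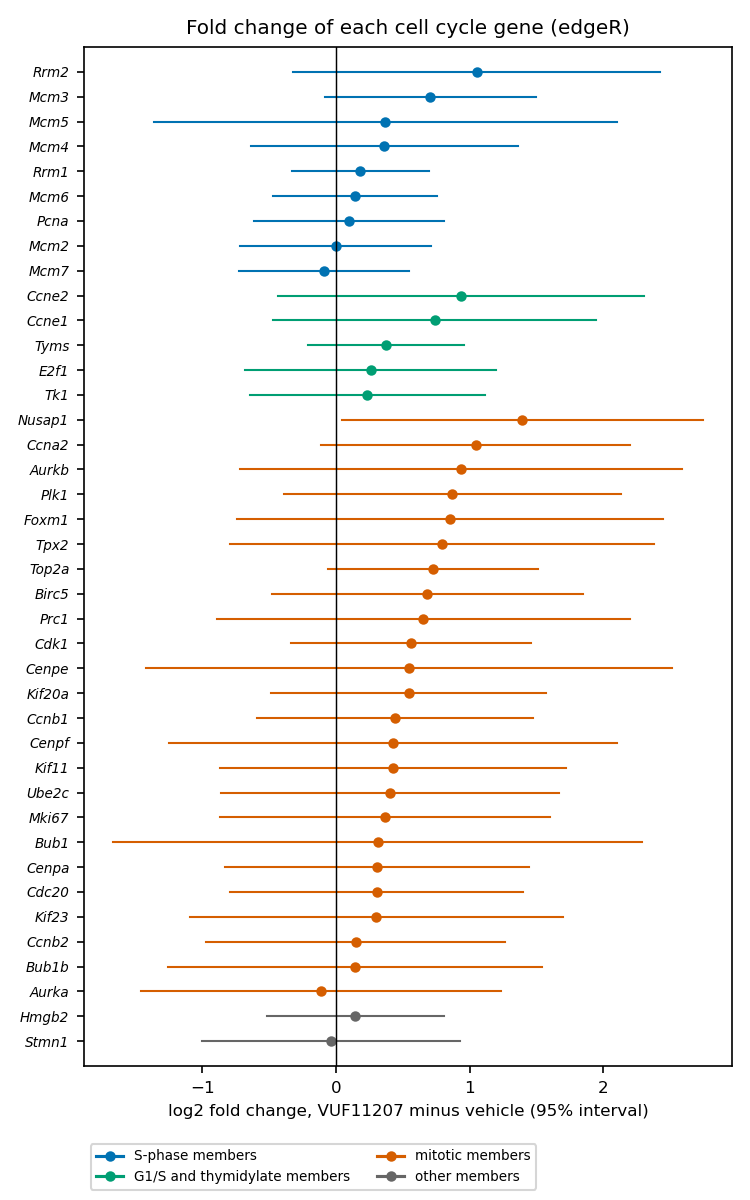
Log2 fold change (VUF11207 minus vehicle) of each member with its 95% interval from edgeR, n = 3 libraries a group, coloured by list. Points lie right of 0 for 36 of 40 genes, and the Nusap1 interval is the only one of the 40 that leaves out 0 (0.048 to 2.74). Under library totals alone (not plotted) all 40 fold changes are positive, but that scaling also raised the median of all tested genes. Under upper quartile scaling (not plotted) 37 are positive.

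Levels of different members were compared per kilobase of exon. Pcna ranked highest at 10.02 CPM per kb, a value that is uncertain because 2 pseudogenes named after it are annotated. It was followed by Hmgb2 (6.94), Stmn1 (6.90), Rrm2 (3.05) and Cdc20 (2.64). Kif11 (0.191), Cenpf (0.122) and Cenpe (0.0731 CPM per kb) were at the bottom. The median was 1.99 CPM per kb for S-phase members and 0.587 for mitotic members. Mitotic members were thus both lower in abundance and wider in error, with a median SE of 0.54 against 0.30 for S-phase members and 0.36 over all tested genes. The ratio of a member's highest to lowest library ran from 1.495 to 8.32, with a median of 3.03, the largest being that of Rrm2.

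Within the lists the libraries did not all order in the same way. The mean centred log2 CPM of the mitotic members was -0.423, -0.419 and 0.0751 with vehicle and 0.517, 0.713 and -0.463 with VUF11207. VUF11207 replicate 3 was thus the lowest of all 6 and the other treated libraries the highest. The S-phase level was -0.812, 0.2 and 0.0297 with vehicle and 0.363, 0.353 and -0.133 with VUF11207, the unnumbered vehicle library being the lowest. Summed over the 24 mitotic genes, CPM averaged 60.9 ± 10.3 with vehicle and 88.9 ± 33.7 with VUF11207 (SD, n = 3 each). Over the 9 S-phase genes the sums averaged 88.3 ± 21.9 and 103.3 ± 15.7 CPM. Neither sum separated the groups. The ratio of the mitotic to the S-phase sum was 0.911, 0.473 and 0.792 with vehicle and 0.882, 1.04 and 0.599 with VUF11207, so it overlapped as well. The G1/S and thymidylate level was 0.0011, -0.36 and -0.345 against 0.0369, 0.657 and 0.00995, which did not overlap, by a margin of under 0.01. Its summed CPM did overlap, at 20.3, 16.2 and 17.3 with vehicle and 20.5, 30.0 and 19.4 with VUF11207.

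**Figure D4:**
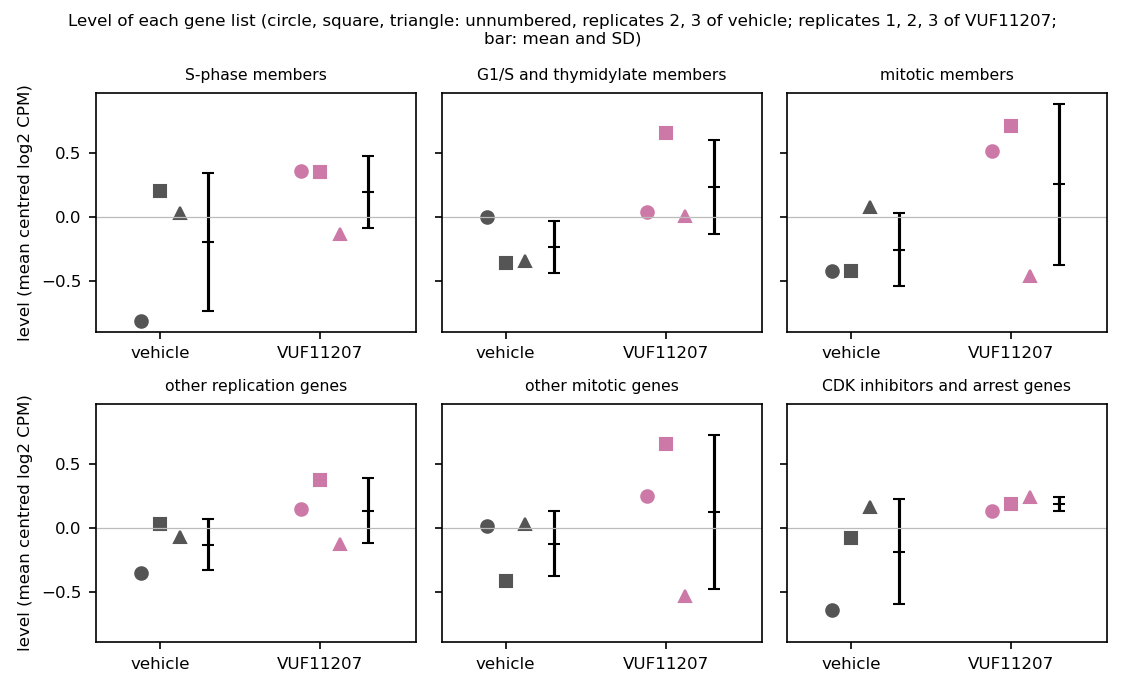
Level of each gene list (mean over its tested genes of log2 CPM centred on the 6 libraries) in each library, with the mean and SD of each group (n = 3). In the mitotic panel the treated triangle, replicate 3, lies at -0.463 below all vehicle points, and in the S-phase panel the vehicle circle, the unnumbered library, lies lowest at -0.812.

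VUF11207 replicate 2 was the highest library for 24 members and VUF11207 replicate 1 for 12, while VUF11207 replicate 3 and the unnumbered vehicle library were the highest for 0. The lowest library was the unnumbered vehicle library for 15 members and VUF11207 replicate 3 for 12, of which 9 were mitotic. A comparison chosen after these values were seen counted members for which VUF11207 replicates 1 and 2 both exceeded all vehicle libraries. It held for 24 of 40 (60%), made up of 4 S-phase, 4 G1/S and thymidylate and 16 mitotic genes, against 852 of 13753 tested genes (6.2%). VUF11207 replicate 3 was above all vehicle libraries for 6 members (15%, against 19.5% of tested genes) and below them for 12 (30%, against 21.5%). Without vehicle replicate 3, every treated library was above both remaining vehicle libraries for 11 members, against 1476 tested genes (10.7%).

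Each median was recomputed with 1 library left out. For the mitotic members it ran from 0.277 without VUF11207 replicate 2, with 18 of 24 positive, to 0.812 without VUF11207 replicate 3, with 24 of 24 positive. Without vehicle replicate 3 it was 0.75. The S-phase median ran from 0.0388 without the unnumbered vehicle library to 0.476 without vehicle replicate 2. Over all 40 members it was 0.21 without VUF11207 replicate 2 and 0.68 without VUF11207 replicate 3. A fit on replicates 2 and 3 of both groups with the replicate number as a block gave -0.0388 for the S-phase median, with 2 of 9 positive, and 0.384 for the mitotic median, with 18 of 24 positive.

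**Figure D5:**
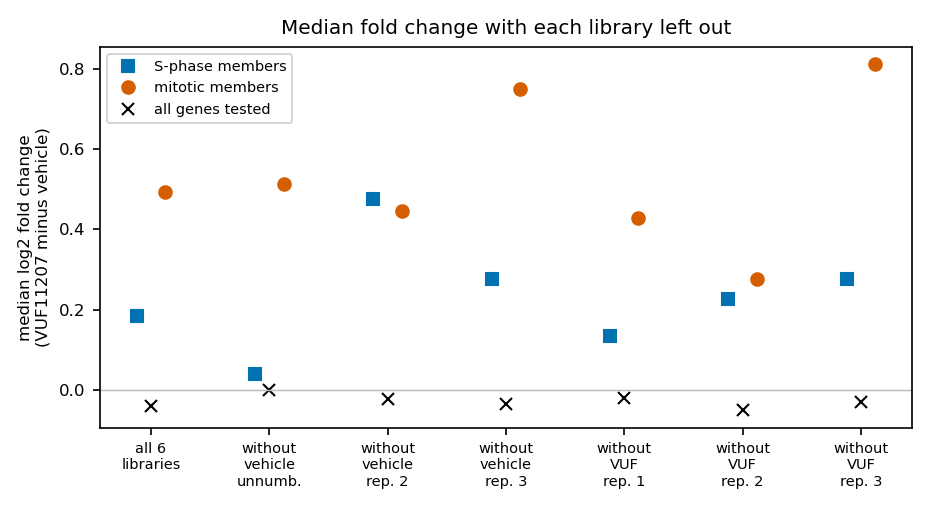
Median log2 fold change (VUF11207 minus vehicle) of the S-phase members, the mitotic members and all tested genes, with all 6 libraries and with each library left out in turn. The mitotic median moves between 0.277 and 0.812 and the S-phase median between 0.0388 and 0.476, while the median of all genes stays near 0.

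Levels of other cell types differed between libraries of the same group. The mean centred log2 CPM of the 9 tested T cell markers was 1.12, -1.04 and 0.267 with vehicle and -0.728, 1.27 and -0.893 with VUF11207. Summed over all 11 T cell markers in the table, tested or not, CPM was 5.77 to 20.9 with vehicle and 6.12 to 26.3 with VUF11207. Themis and Cd28 were at 0 in vehicle replicate 2 and VUF11207 replicate 1, Cd5 in vehicle replicate 2 and Cd28 in VUF11207 replicate 3. VUF11207 replicate 2 was highest for most members and for T cell markers. Vehicle replicate 2 and VUF11207 replicate 3 were low for T cell markers and for mitotic genes. VUF11207 replicate 1 was low for T cell markers and high for mitotic genes, and the unnumbered vehicle library the reverse. The level of the 9 tested B and plasma cell markers was 0.193, -1.17 and 1.1 against -1.47, 1.8 and -0.447. Ms4a1 was at 0 in vehicle replicate 2 and VUF11207 replicate 1. Summed over all 10 listed, CPM was 169.5 to 347.8 with vehicle and 281.9 to 313.1 with VUF11207. Xbp1 alone was at 127.4 to 332.4 CPM and made up most of the sum in every library except VUF11207 replicate 2. Jchain, the next most abundant, was at 18.6, 6.76 and 51.6 CPM with vehicle and 9.09, 160.7 and 4.93 CPM with VUF11207. The part of lymphocytes in the cell cycle values was not tested.

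Myeloid, erythroid and endothelial markers leaned toward lower values with VUF11207, opposite to most members. Neutrophil markers were the only marker list whose level did not overlap between the groups, at 1.36, 0.566 and 0.474 with vehicle and -0.543, -0.00681 and -1.85 with VUF11207. Only 4 of the 10 passed the low count filter, and the level is the mean of these 4. S100a8 and S100a9 did not overlap, with log2 fold changes of -3.0 ± 0.69 and -3.56 ± 1.16 (SE). Csf3r (-0.62 ± 0.98) and Mmp9 (0.87 ± 0.84) overlapped, and Mmp9 was highest in VUF11207 replicate 1, at 8.18 CPM. Summed over all 10, CPM overlapped, at 7.33 to 16.1 with vehicle and 1.45 to 9.36 with VUF11207. Of these 10 markers, 1 to 2 were at 0 in a vehicle library and 3 to 6 in a VUF11207 library, with Ly6g at 0 in all 6. Macrophage and monocyte markers had negative fold changes in 12 of 12 genes, with a median log2 fold change of -0.48 and none at 0. Their level was 0.781, -0.328 and 0.245 against -0.54, 0.447 and -0.605, and their summed CPM 160.5 to 426.9 against 137.5 to 287.9. Erythroid markers were negative in 6 of 6 tested genes (median -1.94), with summed CPM of 187.4 to 1844 against 81 to 501. Endothelial markers were negative in 9 of 10 (median -0.55), with none at 0 and summed CPM of 44.6 to 95.7 against 35.5 to 61.6. By edgeR with Benjamini-Hochberg adjustment 0 of these genes passed, and the part of these cell types in the cell cycle values was not tested.

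Muscle in the specimens also varied. The level of the 10 smooth muscle markers was 0.851, -0.66 and -0.692 with vehicle and 0.308, 1.22 and -1.02 with VUF11207, with none at 0 and summed CPM of 5311 to 16950 and 4640 to 21610. As for the mitotic members, VUF11207 replicate 2 was the highest and VUF11207 replicate 3 the lowest library, and the part of smooth muscle was not tested. The level of the 11 skeletal muscle markers was -4.2, -2.12 and 4.17 with vehicle and 4.26, -2.57 and 0.465 with VUF11207, and their summed CPM was 415.9 to 5663 with vehicle and 619 to 5940 with VUF11207. One marker was at 0 in the unnumbered vehicle library and none elsewhere. Exons of Ube2c share 592 of 2600 bases with Tnnc2, a troponin gene of fast muscle on the opposite strand, and Tnnc2 was at 82.6, 31.3 and 541.9 CPM with vehicle and 502.1, 96.3 and 60.6 CPM with VUF11207. Ube2c was highest in VUF11207 replicate 2 and lowest in VUF11207 replicate 3, where Tnnc2 was at 96.3 and 60.6 CPM. In all, 10 members share exon bases with another protein-coding gene, and whether the counting used strand is not stated in the labels or notes. The largest such stretch is that of Kif20a with Cdc23 (1271 of 4338 bases, opposite strand), a gene at 22.3 to 36.1 CPM. Prc1 shares 911 of 8225 bases with Rccd1, which was at 3.99 to 6.28 CPM. For Nusap1 the partner is Oip5 (172 of 4059 bases), which was at 0.135 to 0.549 CPM. Ccne2 shares 609 of 3495 bases with Ints8, which was at 16.3 to 35.5 CPM, and Ccna2 510 of 4083 with Exosc9, at 6.13 to 10.4 CPM. The part of these shared bases in the members' values was not tested.

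Further genes of the same pathways, not among the members, gave smaller medians. Of 35 tested replication genes (helicase loading, polymerases, fork protection), 23 were positive with a median log2 fold change of 0.16, 0 passed the adjusted threshold and 4 had every treated library above every vehicle library, as had 3.05% of all tested genes. Clspn, claspin of the replication checkpoint, was at 0.111, 0.0704 and 0.420 CPM with vehicle and 0.878, 1.38 and 0.507 CPM with VUF11207. The groups did not overlap, at low counts, and the log2 fold change was 2.10 ± 0.87 (SE, unadjusted edgeR p 0.0472). Fen1, the flap nuclease of Okazaki fragment processing, and Tipin, a replication fork protection factor, were at 0.46 ± 0.26 and 0.54 ± 0.26. Rpa2, named after its values were seen, was at 0.41 ± 0.24. Gmnn (geminin), which blocks relicensing of origins, was at -0.76 ± 0.43, and the polymerase subunits Pole and Pold1 at -0.53 ± 0.76 and -0.26 ± 0.43. Without the unnumbered vehicle library Pole and Pold1 turned to 0.221 and 0.113.

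Of 51 other mitotic genes tested, 39 were positive with a median of 0.35, 0 passed the adjusted threshold and 3 had all treated libraries above all vehicle libraries, against 3.05% of all tested genes. Ncaph, a condensin I subunit, was at 1.78, 6.83 and 8.11 CPM with vehicle and 14.0, 12.8 and 24.4 CPM with VUF11207. Its highest library was VUF11207 replicate 3, the treated library in which most mitotic members were low. The log2 fold change of Ncaph was 1.62 ± 0.58 (SE, unadjusted edgeR p 0.027). Cdca3 was at 0.55 ± 0.35 and Pbk, a mitotic kinase, at 1.20 ± 0.66, and Spc25, a kinetochore subunit named after its values were seen, at 0.98 ± 0.66. Dlgap5, a spindle protein, was at 2.44, 0.775 and 1.10 CPM against 0.811, 0.134 and 0.270 CPM, a log2 fold change of -1.82 ± 0.86. Cks1b and the phosphatase gene Cdc25b were at -0.46 ± 0.31 and -0.67 ± 0.60.

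G1 cyclins, CDKs and their transcription factors were centred near 0, with 13 of 21 tested genes positive, a median log2 fold change of 0.016, 0 past the adjusted threshold and 1 (Lin9) higher without overlap, against 3.05% of all tested genes. Ccnd2, a D-type cyclin, was at 26.6, 45.4 and 94.2 CPM with vehicle and 106.8, 90.2 and 144.0 CPM with VUF11207 (1.04 ± 0.47, SE). Only VUF11207 replicate 2 fell below the highest vehicle library. Lin9 and Skp2 were at 0.68 ± 0.33 and 0.95 ± 0.59, and E2f5, Lin54 and Myc at -0.39 ± 0.22, -0.21 ± 0.31 and -0.18 ± 0.29. Myc turned to 0.0277 without vehicle replicate 2.

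Genes of cell cycle arrest were also mostly positive, with 12 of 16 above 0, a median of 0.23, 0 past the adjusted threshold and 3 higher without overlap (Cdkn1a, Zmat3 and, named after its values were seen, Ccng1), against 3.05% of all tested genes. Cdkn1a encodes p21, the CDK inhibitor induced by p53, and was at 6.03, 6.76 and 10.9 CPM with vehicle and 15.8, 13.2 and 25.1 CPM with VUF11207. Every treated library was above every vehicle library, and the log2 fold change was 1.19 ± 0.35 (SE, unadjusted edgeR p 0.0123, Benjamini-Hochberg adjusted p 0.9999). Cdkn1a and Ncaph were both highest in VUF11207 replicate 3. Zmat3 and Gadd45a, further p53 targets, were at 0.47 ± 0.22 and 0.98 ± 0.50, while Cdkn1b (p27), Cdkn1c (p57) and Cdkn2a were at -0.13 ± 0.20, -0.42 ± 0.41 and -0.67 ± 1.17. The sign of Cdkn2a turned without vehicle replicate 2 (1.57) and that of Cdkn1c without vehicle replicate 3 (0.00165). The level of the arrest list was -0.64, -0.0797 and 0.161 with vehicle and 0.135, 0.183 and 0.241 with VUF11207. Vehicle replicate 3 lay inside the treated range, so the list's groups overlapped.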

How the data were processed

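Total RNA (TRIzol) was sequenced from VAHTS Universal V6 libraries, per the labels' protocols. The deposited values are whole-number read counts per gene symbol. The submitters' processing notes name fastp, HISAT2, HTSeq and build mm10, with no version numbers; annotation and strand setting are not stated there. Files of single libraries (5) were identical to the table. Of its 18697 genes, 1219 were at 0 in all libraries and no row lacked a name. One vehicle column, matched to no replicate label, entered its group without a number.

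Counts were scaled by TMM, filtered with filterByExpr (13753 genes left) and compared by the two-sided quasi-likelihood test of edgeR 4.0.16 (robust, all 6 libraries, Benjamini-Hochberg over all tested genes, threshold 0.05, R 4.3.3). The biological coefficient of variation was 51.4%. List levels are means of centred log2 CPM (prior count 2) over the tested genes of a list, and summed CPM covers all its genes in the table. Alternatives were DESeq2 1.42.0, limma 3.58.1 voom with and without sample weights, other scalings, no filter, a replicate block and left-out libraries. Positions and exon lengths come from the GENCODE annotation of mm10, promoters from RefSeq (GRCm38.p6) with chromosome 18 left out. The named pathway genes were, in each list, the 3 with the smallest p in each direction. The members, lists and naming rule were chosen with earlier results of these data known.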

Additional observations from a re-analysis of the deposited data

How the results depend on the processing

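With 3 libraries a group and a biological coefficient of variation of 51.4%, single-gene intervals were wide (median SE 0.487 for members), and no member passed under any alternative run. DESeq2 called 4 genes of the table and library totals alone 3, against 0 otherwise. The members' median stayed positive, from 0.21 to 0.68 with 1 library left out, 0.245 with voom sample weights and 0.598 under library totals alone (all genes then 0.145). The number of members with every VUF11207 library above every vehicle library, recounted under alternatives chosen after seeing the data, was 4 under upper quartile scaling (3.24% of tested genes), 3 under library totals alone (1.88%) and 6 to 24 with 1 library left out (6.2% to 10.7%).

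The labels do not say that replicate numbers pair the libraries. Column names carry the same numbers in both groups, and what these mean is not stated. The column of the unnumbered vehicle library shares its number with that of VUF11207 replicate 1, a possible pair that the block left out. Deviations of the libraries with replicate number 2 correlated at -0.332 and of those with replicate number 3 at 0.0525. The replicate block on those 4 libraries gave medians of 0.339 (members, 26 of 40 positive), -0.0388 (S-phase) and 0.384 (mitotic) and called 0 genes. Signs turned under it for Ccnb2 (-0.191), Cenpe (-0.254), Cenpf (-0.458), Mcm4 (-0.0776), Mcm5 (-0.299), Mcm6 (-0.00254), Mki67 (-0.265), Pcna (-0.057), Prc1 (-0.0342), Rrm1 (-0.0388) and Pold1 (0.154).

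Other sign changes, whose cause was not tested, were these log2 fold changes. Library totals alone gave Aurka 0.054, Cdkn1b 0.0766, Cdkn2a 0.376, Mcm2 0.334, Mcm7 0.0794, Myc 0.106 and Stmn1 0.352. Mcm2 was 0.0234 with TMM without the 50 most abundant genes, 0.00964 without the low count filter and 0.0176 under upper quartile scaling. Voom gave Cdkn2a 1.11, Mcm2 0.112 and Stmn1 0.0752, and with sample weights Cdkn2a 0.341, Cenpe -0.0523, Cenpf -0.0792 and Mki67 -0.0222. Without both libraries richest in seminal vesicle counts (vehicle replicate 2, VUF11207 replicate 1) Bub1b was -0.543, Cdc20 -0.151, Cdkn2a 1.64, Mcm2 0.217 and Stmn1 0.116.

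With 1 library left out, values crossing 0 ranged from -0.382 to 0.242 for Aurka, -0.534 to 1.12 for Bub1, -0.234 to 0.442 for Bub1b, -0.0619 to 0.389 for Ccnb2, -0.697 to 0.00165 for Cdkn1c and -1.24 to 1.57 for Cdkn2a. They ranged from -0.0586 to 0.578 for Cenpa, -0.161 to 0.302 for Hmgb2, -0.228 to 0.614 for Kif23, -0.214 to 0.27 for Mcm2, -0.117 to 0.725 for Mcm5, -0.298 to 0.0904 for Mcm7 and -0.405 to 0.0277 for Myc. The rest were -0.115 to 0.476 for Pcna, -0.547 to 0.113 for Pold1, -0.917 to 0.221 for Pole, -0.281 to 0.374 for Stmn1, -0.1 to 0.437 for Tk1 and -0.073 to 0.789 for Ube2c.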
